A study of Mus musculus with 56 samples.

Results

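Microglia are the resident macrophages of the brain. Neonatal microglia kept in culture were compared with microglia sorted straight from the cortex of young pups, in 15 of the 56 samples of the series. The 7 cultured libraries and the 8 freshly sorted libraries were chosen by their labels alone, from 1 table of 30 bulk libraries that went through the same counting. The cultured group held wild-type B6 cells taken at postnatal days 5 to 8, selected with CD11b beads and plated on poly-D-lysine in DMEM/F-12 with N-acetyl cysteine, N-2 supplement, M-CSF at 10 ng/ml and 2.5% fetal calf serum. These 7 libraries are the medium arm of an experiment in which the other arm received IL-33 at 200 ng/ml for 3 h, and treatment began after 7 to 9 days in vitro. Some cultures may have been pretreated with GSK-J4, an inhibitor named in the protocol, but the labels do not say which. The fresh group held cortical cells of B6/129 pups that carry Mapt tm1(EGFP)Klt, an allele that places EGFP in the Mapt locus so that neurons make it. Their labels give day 10, whereas the design text gives day 9. After papain digestion and a 40% Percoll step, these cells fell in the Tau-GFP negative gate, so they held little neuronal GFP. Both groups were made into libraries with Smart-seq 2, a full-length method for small amounts of RNA. Strain, genotype, age, selection by beads or by sorting, and the block of plate wells all differ between the groups together with culture, and cannot be told apart from it.

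In the brain, microglia keep a tissue-specific programme that depends on signals from neighbouring cells, among them TGF-beta and ligands of CSF1R. The programme includes the transcription factor SALL1 and surface proteins such as the ADP receptor P2RY12, through which resting processes sense injury. Il1rl1 encodes ST2, the receptor of IL-33, an alarmin released by glia and damaged cells. Macrophages outside this setting can take up other states, marked by lysosomal, lipid-handling and matrix-degrading genes.

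The libraries held 8904413 to 11826389 expected counts in culture and 8914533 to 11285830 in fresh cells, with 13301 to 13450 genes counted at least once in culture against 14334 to 14865 in fresh cells. In cultured libraries, the 10 most abundant genes took 34.55% to 36.14% of all counts, against 16.47% to 22.52% in fresh libraries. Levels are therefore given as CPM, a gene's share of the counts of its library on a fixed scale, after adjustment by the trimmed mean of M values (TMM), which sets the median log2 fold change of all tested genes near 0. Xist, the RNA of the inactive X chromosome, and the Y-linked Ddx3y were both present in every culture, at 393 to 455 CPM and 18.6 to 30.1 CPM. In fresh cells, 5 libraries had Xist at 2073 to 2223 CPM and no Ddx3y, and 3 had Xist at 0.0972 to 1.29 CPM and Ddx3y at 51.2 to 55.1 CPM. Every culture thus held transcripts of both sexes, and nothing in the labels says that the cultures came from separate animals, so p-values measure the spread between these libraries. Cultured replicate 2, the shallowest library of the 15, stood apart from the other 6 cultures. It was the most distant cultured library for 25 of the 31 gene values that stood far from their group in culture, with higher Gpnmb and Spp1 and lower Csf1r, Cd14 and Mrc1. Without it, 1452 genes were higher and 1815 lower in culture beyond 2-fold, against 1466 and 1784 with it. Among fresh libraries, replicate 6, which had the lowest share in its 10 most abundant genes, stood furthest apart, with a chi-square per degree of freedom of 32.5 to 52.2 against the other 7, whereas those 7 gave 7.08 to 17 among themselves. Without it, 1452 genes were higher and 1743 lower beyond 2-fold, and P2ry12, Sall1 and Il1rl1 stood at -8.56, -5.17 and -4.63 on the log2 scale.

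Culture went with a change in most of the transcriptome. Of 11562 genes tested with edgeR's quasi-likelihood F test, 4416 (38.2%) were higher and 4602 (39.8%) lower in culture at an adjusted p under 0.05, and 9018 (78.0%) passed in either direction. A stricter test, which asks for a difference of more than 2-fold, called 1466 genes (12.7%) higher and 1784 (15.4%) lower. Each count of list members beyond 2-fold is to be read against these shares. The gene lists were chosen with earlier results of these data known, so such readings and the ranks of lists are descriptions and not tests. Groups that did not overlap, with every culture above or below every fresh library, were found in 3057 genes (26.4%) and 3032 genes (26.2%). The median log2 fold change of all tested genes was -0.02. With library totals alone in place of TMM, all genes shifted by -0.40, and 26.4% of the calls beyond 2-fold were higher in culture, against 45.1% with TMM. The first principal component of all 30 libraries carried 73% of the variance and set the cultured libraries, with scores of -78 to -75.1, apart from the fresh libraries, with scores of 69.2 to 75.1. Pearson correlations of log2(CPM + 1) were 0.981 to 0.989 among cultured libraries and 0.967 to 0.982 among fresh libraries, but 0.752 to 0.772 between the groups.

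The microglial identity programme was lower in every culture. P2ry12 had 14.7, 17.3 and 19.9 CPM as the lowest, median and highest level of the 7 cultures, against 6159.6, 6601 and 7196 CPM in the 8 fresh libraries. No culture reached 1% of the lowest fresh level (log2 fold change -8.57, SE 0.08, adjusted p = 3.5e-24). Sall1, the zinc-finger factor that maintains microglial identity, had 7.75, 13.4 and 18.8 CPM as the lowest, median and highest level of the 7 cultures, against 428, 476 and 527 CPM in the 8 fresh libraries (log2 fold change -5.15, SE 0.14, adjusted p = 1.32e-17). Il1rl1 had 0.119, 0.369 and 1.2 CPM as the lowest, median and highest level of the 7 cultures, against 9.01, 14.3 and 18.4 CPM in the 8 fresh libraries. The 7 cultures together held 32 reads of it, against 1236 in the 8 fresh libraries (log2 fold change -4.67, SE 0.31, adjusted p = 3.54e-11). The groups did not overlap for any of the 3 genes.

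**Figure D1:**
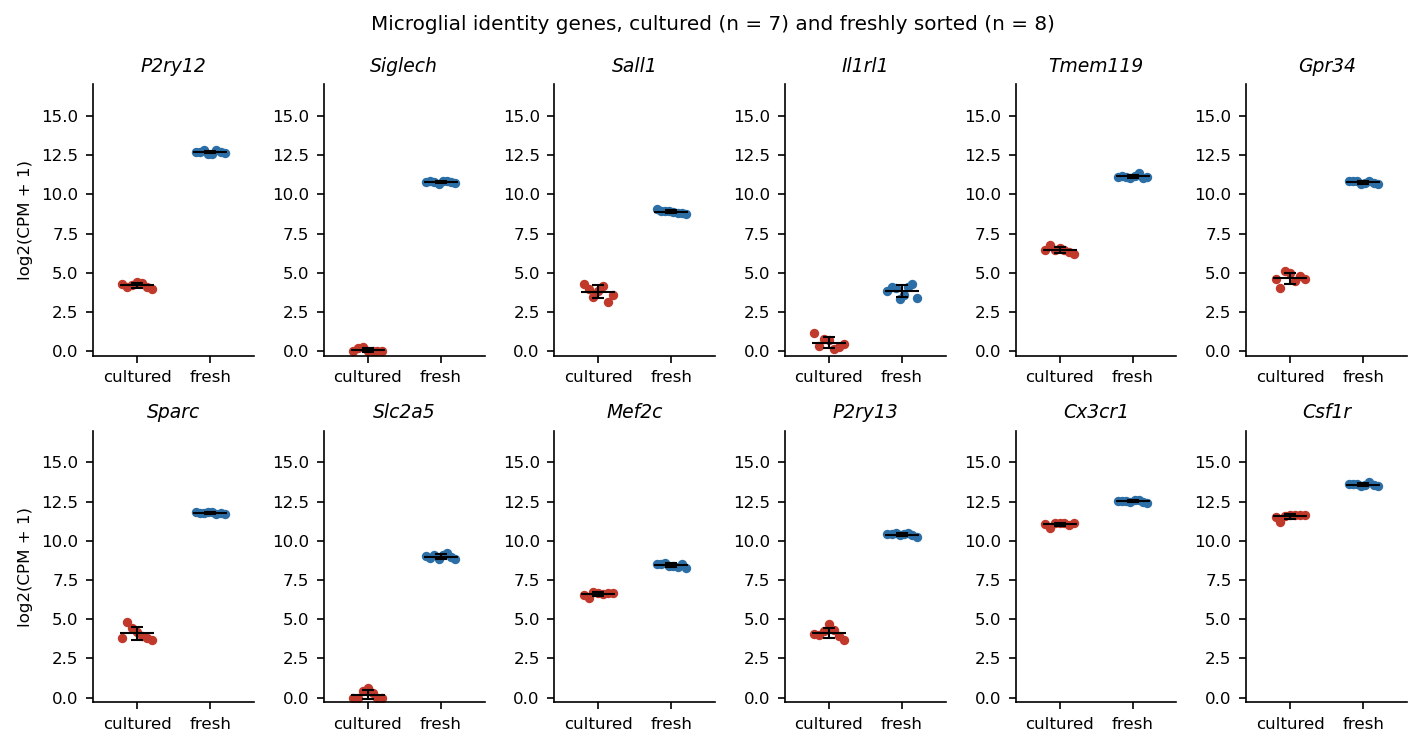
Levels of 12 identity genes as log2(CPM + 1) in each of 7 cultured (left, red) and 8 freshly sorted (right, blue) libraries, with the mean and SD in black. Cultured libraries lie below fresh ones for all 12 genes, from no more than 3 reads of Siglech in all cultures to a smaller gap for Cx3cr1 and Csf1r.

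All 26 genes of the homeostatic surface and secreted list were measured and called lower in culture, and 25 were lower beyond 2-fold, where 39.8% and 15.4% of all tested genes were. Their median log2 fold change was -3.44, the lowest of the 27 lists, although against Tau-GFP plus cells, the other gate of the same pups, the cell cycle list was lower (-2.92, beside -2.7 for this list). Siglech, a sialic acid-binding lectin, had 3 reads in the 7 cultures and 160325 in the 8 fresh libraries, a ratio of cultured to fresh level of 2.78e-05 with a 95% counting interval of 5.73e-06 to 8.11e-05. Crybb1, a crystallin gene that microglia express in early life, had no read in any culture and averaged 359 ± 23 CPM in fresh cells. Against a floor of 3 reads over the cultured group, it was at least 7299.5-fold lower in culture. Slc2a5, the fructose transporter GLUT5, averaged 0.163 ± 0.225 CPM in culture and 513 ± 48 CPM in fresh cells (log2 fold change -11.5, SE 0.21, adjusted p = 5.08e-20). Tmem119, a membrane protein used as a microglial marker, had 73.4, 87.6 and 107 CPM as the lowest, median and highest level of the 7 cultures, against 2097, 2241 and 2674 CPM in the 8 fresh libraries. That difference was smaller than for P2ry12 (log2 fold change -4.68, SE 0.08, adjusted p = 2.34e-20), and the cultures kept a measurable level. Gpr34, a lysophosphatidylserine receptor, averaged 24.7 ± 5.89 CPM in culture and 1740.2 ± 105 CPM in fresh cells (log2 fold change -6.13), and Sparc, a matricellular protein, 16.8 ± 5.79 CPM in culture and 3543 ± 121 CPM in fresh cells (-7.72).

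Other defining genes fell less and stayed abundant in culture. Cx3cr1, the fractalkine receptor, averaged 2129.8 ± 154 CPM in culture and 5908 ± 232 CPM in fresh cells (log2 fold change -1.47, SE 0.05, adjusted p = 3.18e-16). Csf1r, the receptor for the M-CSF that was added to the medium, averaged 3033 ± 295 CPM in culture and 12310.0 ± 754 CPM in fresh cells (-2.02). The levels of both genes exceeded 1000 CPM in every culture, while those of Siglech and Crybb1 were at or near 0. In bulk libraries, fewer cells with a transcript and less of it per cell cannot be told apart.

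The start regions of P2ry12 and Siglech are shown as those of the 2 surface receptors with the widest gaps in this list. Each is 300 bases from RefSeq on GRCm38.p6, from 250 bases before the start to 50 after, 5′ to 3′ on the gene's strand. Capitals mark matches on either strand to any of 4 motifs, namely CACGTG (an E-box), TGANTCA (AP-1), the core of the antioxidant response element (TGAC and GCA with any 3 bases between) and GAGGAAGT (PU.1). AP-1 and antioxidant matches can overlap, as the first bases of both motifs are alike. P2ry12 lies at chr3:59262936-59263235 on the minus strand and Siglech at chr7:55767934-55768233 on the plus strand.
P2ry12: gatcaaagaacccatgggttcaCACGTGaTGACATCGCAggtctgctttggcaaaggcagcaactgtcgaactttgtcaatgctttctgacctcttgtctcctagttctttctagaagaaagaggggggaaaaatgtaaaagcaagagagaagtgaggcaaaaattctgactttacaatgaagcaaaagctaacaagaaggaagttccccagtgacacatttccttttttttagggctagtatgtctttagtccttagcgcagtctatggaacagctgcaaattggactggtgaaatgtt
Siglech: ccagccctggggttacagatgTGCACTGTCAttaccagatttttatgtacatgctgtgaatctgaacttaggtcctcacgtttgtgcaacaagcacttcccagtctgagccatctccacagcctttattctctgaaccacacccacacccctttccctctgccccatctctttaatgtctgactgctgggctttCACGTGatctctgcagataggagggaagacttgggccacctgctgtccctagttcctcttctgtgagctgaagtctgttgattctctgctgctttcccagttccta
Each of these windows held 1 E-box and 1 antioxidant element core and neither of the other motifs. Among the 9280 of 11562 tested genes matched to a promoter by current or older symbol (80.3%), 10.5% held the E-box, 2.73% the antioxidant core, 4.77% the AP-1 motif and 3.37% the PU.1 motif. A match is a run of letters and not a shown binding site.

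The transcription factors of microglia did not move as a block. Of 14 measured identity factors, 4 (28.6%) fell beyond 2-fold, beside 15.4% of all tested genes. Another 2 (14.3%) rose beyond 2-fold, near the 12.7% of all tested genes. Besides Sall1, its relative Sall3 averaged 14.4 ± 2.1 CPM in culture and 58.7 ± 4.64 CPM in fresh cells (log2 fold change -2.03), and the MADS-box factor Mef2c 97.6 ± 8.9 CPM in culture and 349 ± 28.6 CPM in fresh cells (-1.84). Smad3, which carries TGF-beta signals to the nucleus, averaged 30.8 ± 5.35 CPM in culture and 73.7 ± 15.4 CPM in fresh cells (-1.26). Cebpa, a myeloid lineage factor, rose beyond 2-fold and averaged 34.7 ± 4.02 CPM in culture and 11.5 ± 1.44 CPM in fresh cells (log2 fold change 1.6, SE 0.10, adjusted p = 1.56e-11). Sfpi1, the older symbol of Spi1 that encodes PU.1, averaged 253 ± 68.3 CPM in culture and 108 ± 43.1 CPM in fresh cells (log2 fold change 1.23, SE 0.22, adjusted p = 3.16e-05). Irf8 and Runx1, myeloid factors of microglial development, were slightly higher in culture, with log2 fold changes of 0.24 and 0.16, and both were lower in culture with library totals alone. The Runx1 call also needed several single libraries, as it was lost without cultured replicate 1 or 3, or without fresh replicate 1, 2, 5, 6 or 8.

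In the TGF-beta list, 3 of 13 measured members (23.1%) fell and none rose beyond 2-fold, beside 15.4% and 12.7% of all tested genes. Tgfbr1, the type I receptor, averaged 178 ± 12.7 CPM in culture and 561 ± 74.4 CPM in fresh cells (log2 fold change -1.65, SE 0.08, adjusted p = 1.84e-13), and Ski, a repressor of SMAD signalling, 74.5 ± 5.88 CPM in culture and 191 ± 7.51 CPM in fresh cells (log2 fold change -1.36). Tgfbr2, the type II receptor, averaged 342 ± 40.3 CPM in culture and 358 ± 54.4 CPM in fresh cells and was not called with TMM (log2 fold change -0.07, adjusted p = 0.514 by edgeR), but was called lower with library totals alone. Itgav, an integrin chain that activates latent TGF-beta, was higher, at 97.1 ± 7.79 CPM in culture and 44.7 ± 6.94 CPM in fresh cells (1.12).

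In the IL-33 receptor chain, Il1rl1 and Sigirr, an inhibitory relative of the IL-1 receptors, were the 2 of 8 measured members that fell beyond 2-fold. They made up 25% of the measured members, beside 15.4% of all tested genes. Sigirr averaged 0.436 ± 0.150 CPM in culture and 5.87 ± 1.49 CPM in fresh cells (log2 fold change -3.69, SE 0.27, adjusted p = 1.55e-10). Il1rap, the partner chain of ST2, averaged 13.2 ± 2.74 CPM in culture and 10.6 ± 2.97 CPM in fresh cells and was not called (log2 fold change 0.32, adjusted p = 0.115 by edgeR), although it was called higher in IL-33 cultures against Tau-GFP plus cells (0.59, adjusted p = 0.00945 by edgeR). The signalling kinase genes Irak2 and Irak4 were higher in culture, with log2 fold changes of 1.04 and 0.93, and Irak1 was lower, with -0.57. Myd88, the adaptor of the same pathway, was higher by 0.39 on the log2 scale with TMM and not with library totals alone.

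Colony-stimulating factor receptors moved in opposite directions. Besides Csf1r, Csf3r, the G-CSF receptor, fell and averaged 95.6 ± 14.3 CPM in culture and 243 ± 14.3 CPM in fresh cells (log2 fold change -1.34, SE 0.08, adjusted p = 8.81e-12). Csf1, which encodes M-CSF itself, averaged 1.77 ± 1.75 CPM in culture and 17.9 ± 2.72 CPM in fresh cells (log2 fold change -3.36, and -3.96 without cultured replicate 2). Csf2ra, the GM-CSF receptor alpha chain, rose and averaged 255 ± 13.9 CPM in culture and 70.6 ± 4.0 CPM in fresh cells (log2 fold change 1.85, SE 0.05, adjusted p = 1.56e-17), and Csf2rb2, the mouse IL-3 receptor beta chain, averaged 269 ± 27.8 CPM in culture and 118 ± 10.0 CPM in fresh cells (1.19). Csf2rb, the common beta chain, was higher by 0.31, a difference that library totals alone turned negative. Csf2rb and Csf2rb2 are near-identical copies, so reads may be shared between them.

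Purinergic genes moved in both directions. Of 11 measured members, 6 (54.5%) fell and 4 (36.4%) rose beyond 2-fold, beside 15.4% and 12.7% of all tested genes. P2ry13, the close relative of P2ry12, averaged 16.9 ± 4.19 CPM in culture and 1354 ± 62.9 CPM in fresh cells (log2 fold change -6.32, SE 0.12, adjusted p = 9.94e-20). Entpd1, the ectonucleotidase CD39, averaged 74.9 ± 13.7 CPM in culture and 1005 ± 77.4 CPM in fresh cells (log2 fold change -3.74), and Adora3, an adenosine receptor, 5.88 ± 0.886 CPM in culture and 67.7 ± 5.02 CPM in fresh cells (-3.52). In the other direction, P2rx4, an ATP-gated channel, averaged 309.9 ± 19 CPM in culture and 64.8 ± 8.61 CPM in fresh cells (log2 fold change 2.26, SE 0.07, adjusted p = 2.82e-16), and P2ry2, a UTP and ATP receptor, 23.2 ± 2.59 CPM in culture and 1.08 ± 0.674 CPM in fresh cells (4.43). Adora2b, another adenosine receptor, averaged 11.3 ± 2.66 CPM in culture and 0.127 ± 0.190 CPM in fresh cells, and Nt5e, the ectonucleotidase CD73, 11.3 ± 3.44 CPM in culture and 0.123 ± 0.161 CPM in fresh cells.

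Phagocytic-state genes, which microglia express in white matter tracts, injury and disease, had the highest median of the 27 lists with edgeR and Tau-GFP negative cells. Of 22 measured members, 21 were higher and 1 lower in culture, beside 38.2% and 39.8% of all tested genes. Beyond 2-fold, 18 (81.8%) were higher, beside 12.7%, and the median log2 fold change was 4.6. The list of lipid efflux and droplets was higher with DESeq2, at 4.13 beside 4.02, and against Tau-GFP plus cells, at 3.61 beside 3.09. Spp1, the secreted phosphoprotein osteopontin, had 18991, 19961 and 26596 CPM as the lowest, median and highest level of the 7 cultures, against 2.47, 5.76 and 74.5 CPM in the 8 fresh libraries. Every culture was far above every fresh library (log2 fold change 10.2, SE 0.69, adjusted p = 4.49e-11), and fresh replicate 2, at 74.5 CPM, was the highest of its group. Without that library the log2 fold change was 11.11. Gpnmb, a lysosomal and surface glycoprotein, had 2818, 2969 and 4522 CPM as the lowest, median and highest level of the 7 cultures, against 0.389, 2.57 and 8.41 CPM in the 8 fresh libraries. Cultured replicate 2 was the highest here, and the fold change was of similar size without it (log2 fold change 10.02, SE 0.38, adjusted p = 3.08e-15, and 9.92 without it). Lgals3, the lectin galectin-3, had 2469.8, 2589 and 3030.4 CPM as the lowest, median and highest level of the 7 cultures, against 0, 1.31 and 4.07 CPM in the 8 fresh libraries, with no overlap (log2 fold change 10.91, SE 0.35, adjusted p = 3e-16). Apoe, the apolipoprotein of brain lipid particles, had 38940.2, 49609 and 57607 CPM as the lowest, median and highest level of the 7 cultures, against 2867, 3609.9 and 4022 CPM in the 8 fresh libraries. It was abundant in fresh cells and higher still in culture (log2 fold change 3.78, SE 0.08, adjusted p = 2.52e-19).

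**Figure D2:**
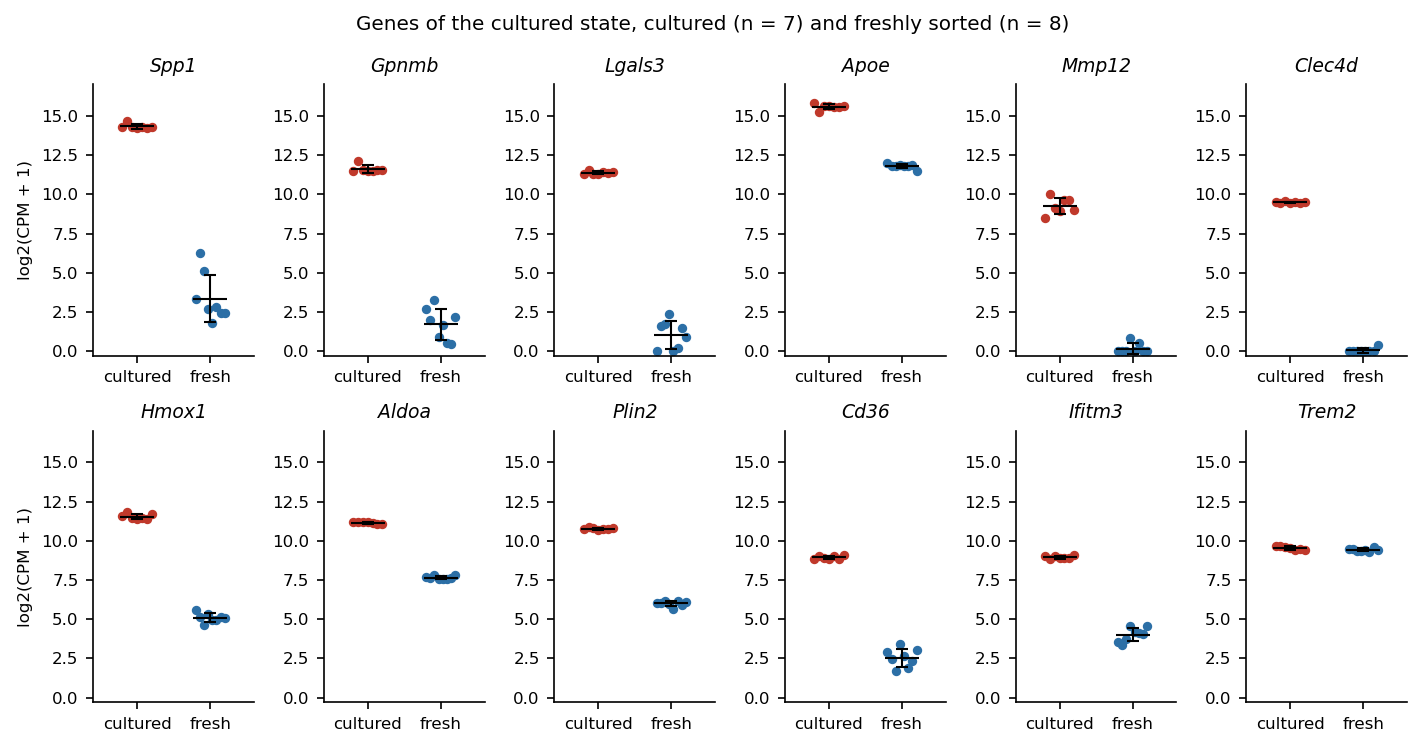
Levels of 12 genes as log2(CPM + 1) in each of 7 cultured (left, red) and 8 freshly sorted (right, blue) libraries, with the mean and SD in black. Cultured libraries lie above fresh ones for 11 of them, and Trem2, with a mean of 744 CPM in culture and 684 CPM in fresh cells, overlaps between the groups.

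Not every member of that list followed. Cst7, the cystatin F gene that marks the same state in disease, was the 1 member that fell, at 2.42 ± 0.785 CPM in culture and 5.49 ± 1.24 CPM in fresh cells (log2 fold change -1.18, SE 0.23, adjusted p = 0.000109). Trem2, the lipid-sensing receptor of the state, averaged 744 ± 53.4 CPM in culture and 684 ± 45.7 CPM in fresh cells. Its small difference (log2 fold change 0.12, adjusted p = 0.0436 by edgeR) turned to -0.28 with library totals alone, and its call was lost without cultured replicate 1, 2 or 3 and without any fresh replicate other than 7. Fabp4, a fatty acid carrier, had no read in any fresh library and averaged 27 ± 2.4 CPM in culture, or at least 809-fold more than the 3-read floor over the fresh group.

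The genes with the largest gains of all included pattern receptors and secreted enzymes. Clec4d and Clec4e, 2 C-type lectins that bind mycobacterial glycolipid, averaged 716 ± 15.3 and 144 ± 29.4 CPM in culture. The 8 fresh libraries held 3 reads of Clec4d, all in replicate 8, and none of Clec4e, which was at least 4285-fold higher in culture against the 3-read floor. Fpr1, a receptor for formyl peptides, had 14309 reads in culture and 1 in fresh cells, in replicate 3, a ratio of 21233 with a counting interval of 3810 to 838712. Mmp12, the macrophage elastase, had 356, 557 and 1043 CPM as the lowest, median and highest level of the 7 cultures, against 0, 0 and 0.775 CPM in the 8 fresh libraries. Its level spread more among cultures than most genes here, and all cultures exceeded all fresh libraries (log2 fold change 11.92, SE 0.39, adjusted p = 3.01e-16). Ch25h, which makes an oxysterol with antiviral and immune functions, averaged 212 ± 39.2 CPM in culture and 0.152 ± 0.192 CPM in fresh cells (log2 fold change 10.3, SE 0.25, adjusted p = 2.59e-18). Irg1, the enzyme of itaconate synthesis, averaged 136 ± 38.3 CPM in culture and 0.0971 ± 0.187 CPM in fresh cells, and Adam8, a membrane metalloprotease, 2223 ± 135 CPM in culture and 1.35 ± 0.692 CPM in fresh cells. Ass1, of arginine synthesis, and Akr1b8, an aldo-keto reductase, had no read in fresh cells, and were at least 1654-fold and 1497-fold higher in culture. Stap1, a signalling adaptor, had 4113 reads in culture and 3 in fresh cells.

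The promoters of Spp1 and Gpnmb are shown as those of 2 genes that were abundant in culture and low in fresh cells. Spp1 is at chr5:104434861-104435160 on the plus strand, the first of 2 start sites listed for it, and Gpnmb at chr6:49036268-49036567 on the plus strand, both on GRCm38.p6 and marked as above.
Spp1: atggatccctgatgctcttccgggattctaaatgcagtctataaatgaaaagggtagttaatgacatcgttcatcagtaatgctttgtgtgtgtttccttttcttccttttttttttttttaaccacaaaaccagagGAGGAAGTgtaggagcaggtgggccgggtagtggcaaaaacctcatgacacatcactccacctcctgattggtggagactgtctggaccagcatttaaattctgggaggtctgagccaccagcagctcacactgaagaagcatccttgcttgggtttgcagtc
Gpnmb: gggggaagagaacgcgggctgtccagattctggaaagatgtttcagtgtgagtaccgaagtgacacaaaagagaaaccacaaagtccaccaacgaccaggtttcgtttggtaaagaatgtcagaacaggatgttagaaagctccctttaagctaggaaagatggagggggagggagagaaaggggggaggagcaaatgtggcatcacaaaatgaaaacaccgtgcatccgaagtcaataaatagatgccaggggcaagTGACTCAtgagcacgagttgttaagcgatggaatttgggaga
The Spp1 window held 1 PU.1 motif and the Gpnmb window 1 AP-1 motif. Over the 1175 matched promoters of genes higher beyond 2-fold, 7.74% held the AP-1 motif and 4.09% the PU.1 motif, beside 4.77% and 3.37% over all tested genes, as a description without a test. For the genes lower beyond 2-fold, promoters were matched for 77.6%, under the 80% required for a set here, so the same description is void for them.

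Lysosomal and lipid-handling genes changed by member. Of 31 lysosomal genes, 25 were higher and 4 lower in culture, beside 38.2% and 39.8% of all tested genes. Beyond 2-fold, 8 (25.8%) were higher and 1 (3.23%) lower, beside 12.7% and 15.4%. With library totals alone, the plain test called 14 higher and 10 lower. Atp6v0d2, a proton-pump subunit of osteoclasts and macrophages, averaged 75.1 ± 8.09 CPM in culture and 0.0311 ± 0.0594 CPM in fresh cells. Gla, the alpha-galactosidase, averaged 98.4 ± 5.08 CPM in culture and 4.99 ± 1.59 CPM in fresh cells (log2 fold change 4.31, SE 0.14, adjusted p = 3e-16), and Lipa, the lysosomal acid lipase, 1444 ± 76.7 CPM in culture and 164 ± 11.4 CPM in fresh cells (log2 fold change 3.14). Ctsk, the collagen-degrading cathepsin K, averaged 11.4 ± 7.38 CPM in culture and 0.368 ± 0.413 CPM in fresh cells (4.91), with cultured replicate 4 the highest at 27 CPM. Lgmn, the asparaginyl endopeptidase legumain, was the 1 member that fell beyond 2-fold, at 1580.2 ± 105 CPM in culture and 6625 ± 663 CPM in fresh cells (log2 fold change -2.07, SE 0.06, adjusted p = 9.37e-17).

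Of 11 genes for lipid efflux and droplets, 7 (63.6%) rose and 2 (18.2%) fell beyond 2-fold, beside 12.7% and 15.4% of all tested genes. Plin2, which coats lipid droplets, had 1627, 1705 and 1875 CPM as the lowest, median and highest level of the 7 cultures, against 49.9, 64.6 and 72 CPM in the 8 fresh libraries (log2 fold change 4.77, SE 0.07, adjusted p = 2.46e-21). Apoc2, the cofactor of lipoprotein lipase, averaged 57.8 ± 4.96 CPM in culture and 0.253 ± 0.191 CPM in fresh cells (log2 fold change 7.76). The sterol exporters went the other way, with Abcg1 at 17.7 ± 2.53 CPM in culture and 173 ± 22.5 CPM in fresh cells (log2 fold change -3.29, SE 0.10, adjusted p = 1.2e-16). Abca1 was lower by less than 2-fold, at 178 ± 19.8 CPM in culture and 340.0 ± 28.2 CPM in fresh cells (-0.93). Mylip, a ubiquitin ligase induced by sterols, also fell (-1.13). Of 19 genes of cholesterol synthesis and uptake, 9 (47.4%) rose beyond 2-fold and none fell, beside 12.7% and 15.4% of all tested genes. Without TMM, on library totals alone, 4 rose beyond 2-fold. Fdps, Lss and Stard4, 2 synthesis enzymes and a sterol carrier, had log2 fold changes of 1.96, 1.72 and 1.72.

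Metabolic and redox genes rose. Of 23 measured glycolysis and hypoxia genes, 17 (73.9%) rose and none fell beyond 2-fold, beside 12.7% and 15.4% of all tested genes. The median log2 fold change was 2.31. Aldoa, the glycolytic aldolase, had 2119, 2300.4 and 2397 CPM as the lowest, median and highest level of the 7 cultures, against 185, 199 and 222 CPM in the 8 fresh libraries. The groups were far apart compared with their spread (log2 fold change 3.5, SE 0.05, adjusted p = 2.46e-21). Pgam1, phosphoglycerate mutase, averaged 1460.0 ± 89.2 CPM in culture and 139 ± 9.42 CPM in fresh cells (log2 fold change 3.4), and Pfkp, a phosphofructokinase, 45.8 ± 5.26 CPM in culture and 1.96 ± 2.18 CPM in fresh cells (4.57, and 5.17 without fresh replicate 8). Hk2, a hexokinase, was lower, at 95.5 ± 7.96 CPM in culture and 125 ± 14.6 CPM in fresh cells (-0.39), and Slc16a1, the lactate carrier MCT1, averaged 13.8 ± 2.02 CPM in culture and 34.4 ± 26.1 CPM in fresh cells (-1.31). Fresh replicates 4 and 8 held 70.3 and 81.9 CPM of Slc16a1, against 17.2 to 25.8 CPM in the other 6. The same 2 libraries had the highest levels of the endothelial markers Cldn5, at 142 and 201 CPM, and Kdr, at 16.5 and 23 CPM, and their part in the Slc16a1 difference was not tested. Against Tau-GFP plus cells, Hk2 was not called (0.16).

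Of 21 measured NRF2 targets and redox genes, 16 (76.2%) rose and none fell beyond 2-fold, beside 12.7% and 15.4% of all tested genes. The median of this list was 2.04. Hmox1, heme oxygenase 1, had 2658, 2827 and 3733 CPM as the lowest, median and highest level of the 7 cultures, against 24.1, 33.5 and 47.1 CPM in the 8 fresh libraries (log2 fold change 6.46, SE 0.13, adjusted p = 1.48e-19). Srxn1, sulfiredoxin, averaged 37.1 ± 1.8 CPM in culture and 1.47 ± 0.791 CPM in fresh cells (log2 fold change 4.65, SE 0.22, adjusted p = 1.15e-13), and Gclm, the modifier subunit of glutathione synthesis, 21.9 ± 14.4 CPM in culture and 1.38 ± 0.996 CPM in fresh cells (log2 fold change 4.0). Gclc, its catalytic partner, was the 1 member called lower, at 10.1 ± 2.08 CPM in culture and 13.5 ± 2.84 CPM in fresh cells (-0.42), a call lost without cultured replicate 4 and with Tau-GFP plus cells in place of negative ones. N-acetyl cysteine, a thiol donor, was part of the medium, and its part in these levels was not tested. The Srxn1 promoter is shown because it held 2 matches to the AP-1 motif, which resembles the antioxidant element, at chr2:152105274-152105573 on the plus strand of GRCm38.p6.
Srxn1: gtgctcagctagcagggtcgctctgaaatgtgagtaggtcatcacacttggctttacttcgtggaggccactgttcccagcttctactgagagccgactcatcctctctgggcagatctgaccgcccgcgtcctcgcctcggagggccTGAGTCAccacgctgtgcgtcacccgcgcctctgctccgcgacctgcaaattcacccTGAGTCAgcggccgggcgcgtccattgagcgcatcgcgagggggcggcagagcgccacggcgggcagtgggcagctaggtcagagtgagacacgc
Of the 18 matched promoters of the 21 redox genes, 5 held the AP-1 motif and none the antioxidant core as spelled here, beside 4.77% and 2.73% of all tested promoters. A list this short may hold no match at the second share.

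**Figure D3:**
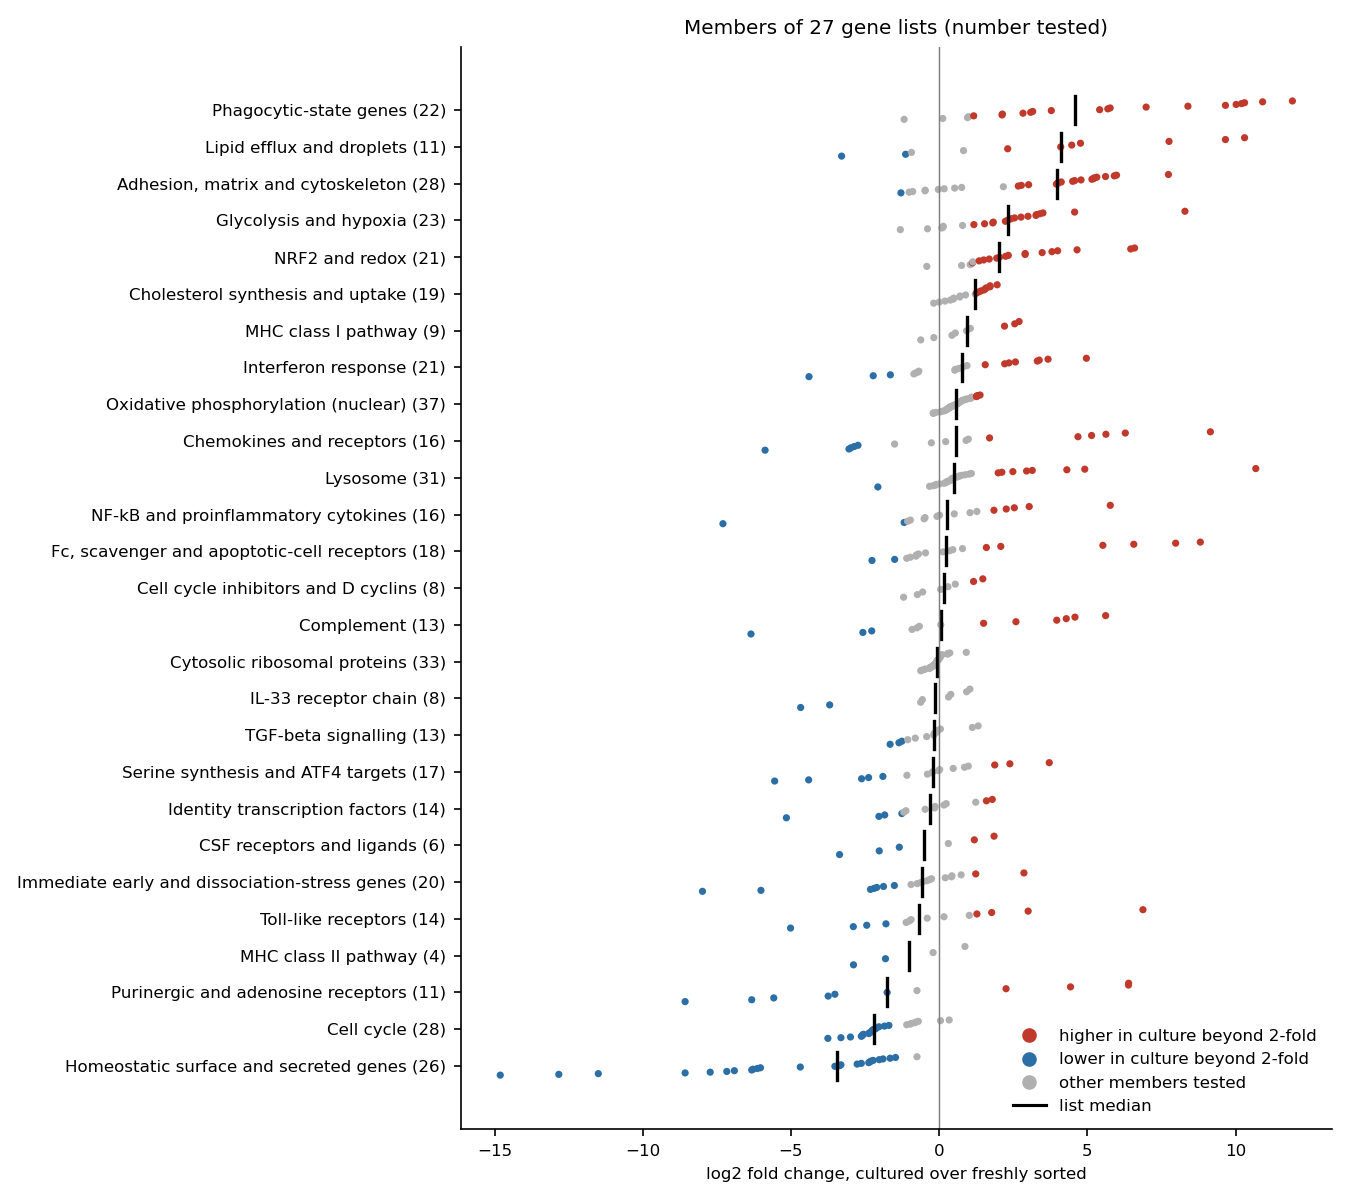
Log2 fold change, cultured over freshly sorted, of each tested member of 27 gene lists, with red for members higher and blue for members lower beyond 2-fold, grey for the others and a black bar for the list median. The homeostatic list lies lowest, with a median of -3.44, and the phagocytic-state list highest, with 4.6.

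Of 37 nuclear genes of oxidative phosphorylation, 32 were higher and 2 lower in culture, beside 38.2% and 39.8% of all tested genes, with a median of 0.58. Beyond 2-fold, 4 (10.8%) were higher, under the 12.7% of all tested genes. With library totals alone, 18 were higher and 9 lower, none beyond 2-fold, and the median was 0.18. Ndufa2, a complex I subunit, averaged 119.7 ± 9.47 CPM in culture and 46 ± 3.36 CPM in fresh cells (log2 fold change 1.38), and Cox5a, of complex IV, 138 ± 10.3 CPM in culture and 57.5 ± 4.88 CPM in fresh cells (1.26). The 2 lower members were Ndufa4 (-0.20) and Ndufa9 (-0.19). No cytosolic ribosomal protein gene of 33 passed the 2-fold test in either direction. By the plain test, 4 were higher and 13 lower, beside 38.2% and 39.8% of all tested genes, the lower count near that share. With library totals alone, 1 was higher and 30 lower, and the median was -0.49 in place of -0.08. Rps2 (0.91) and Rps9 (-0.62) marked the 2 ends of that list, and many of these genes have processed copies that can share reads.

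The list of serine synthesis genes and targets of the transcription factor ATF4 held losses and gains. Of 17 measured members, 5 (29.4%) fell and 3 (17.6%) rose beyond 2-fold, beside 15.4% and 12.7% of all tested genes. Phgdh, the first enzyme of serine synthesis, had 4.83, 6.75 and 14.1 CPM as the lowest, median and highest level of the 7 cultures, against 333, 358 and 372 CPM in the 8 fresh libraries. Every culture was far below every fresh library (log2 fold change -5.55, SE 0.16, adjusted p = 2.82e-17). Slc7a5, a large neutral amino acid carrier, averaged 0.318 ± 0.140 CPM in culture and 6.91 ± 2.58 CPM in fresh cells (log2 fold change -4.4), and Shmt1, a serine hydroxymethyltransferase, 2.98 ± 0.943 CPM in culture and 11.1 ± 2.2 CPM in fresh cells (-1.9). Asns, asparagine synthetase, was higher, at 15.7 ± 2.39 CPM in culture and 3.01 ± 3.02 CPM in fresh cells (2.39), with fresh replicate 8 the highest of its group at 10.0 CPM.

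Cell division genes were lower in culture. Of 28 measured members, 20 (71.4%) fell and none rose beyond 2-fold, beside 15.4% and 12.7% of all tested genes. The median was -2.18. Mki67, a marker of cycling cells, had 7.08, 14.1 and 22.1 CPM as the lowest, median and highest level of the 7 cultures, against 104, 144 and 194 CPM in the 8 fresh libraries (log2 fold change -3.31, SE 0.19, adjusted p = 3.28e-12). Top2a, the topoisomerase of dividing cells, averaged 22.7 ± 5.41 CPM in culture and 179.9 ± 46.7 CPM in fresh cells (log2 fold change -2.99), Ccnb2, a mitotic cyclin, 10.5 ± 4.61 CPM in culture and 64.3 ± 8.22 CPM in fresh cells (-2.63), and Cenpf, a kinetochore protein, 2.46 ± 0.859 CPM in culture and 33.2 ± 5.33 CPM in fresh cells (-3.75). Pcna, the replication clamp, was the 1 member called higher (0.34), and it was not called with library totals alone (-0.066). Cdkn1a, the inhibitor p21, rose and averaged 132 ± 16.1 CPM in culture and 47.4 ± 7.6 CPM in fresh cells (log2 fold change 1.47, SE 0.10, adjusted p = 2.38e-11), and Ccnd3, a D cyclin, averaged 76.6 ± 5.65 CPM in culture and 34.3 ± 2.68 CPM in fresh cells (1.16). Cdkn1b and Cdkn2c, 2 other inhibitors, were lower, with log2 fold changes of -0.74 and -1.2.

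Immediate early and stress genes, which tissue dissociation can induce, were mixed. Of 20 measured members, 7 (35%) fell beyond 2-fold, beside 15.4% of all tested genes. Another 2 (10%) rose beyond 2-fold, a smaller share than the 12.7% of all tested genes. Hspa1a, an inducible heat shock protein, had 0, 0.712 and 1.12 CPM as the lowest, median and highest level of the 7 cultures, against 17.4, 44.4 and 85 CPM in the 8 fresh libraries (log2 fold change -6.01, SE 0.44, adjusted p = 1.67e-10). Fosb had 1 read in the 7 cultures and averaged 7.33 ± 5.01 CPM in fresh cells, a ratio of cultured to fresh level of 0.00227 with a counting interval of 5.74e-05 to 0.0127. Egr1 averaged 51.1 ± 11.9 CPM in culture and 234 ± 72.1 CPM in fresh cells (log2 fold change -2.2), and Nr4a1, an orphan nuclear receptor, 4.6 ± 2.55 CPM in culture and 23 ± 11.8 CPM in fresh cells (-2.32). Atf3 and Klf6 rose, with Atf3 at 183 ± 14.2 CPM in culture and 25.2 ± 8.96 CPM in fresh cells (log2 fold change 2.86, SE 0.17, adjusted p = 4.92e-12) and Klf6 at 88.8 ± 7.89 CPM in culture and 37.7 ± 6.22 CPM in fresh cells (1.23). Fos was higher in culture, at 232 ± 40.8 CPM in culture and 139 ± 58.3 CPM in fresh cells (0.74), with groups that overlapped, and against Tau-GFP plus cells it was lower in culture (-1.02). Junb (0.43) was called higher with TMM and not with library totals alone. The fresh cells were dissociated and sorted before lysis, whereas days in culture followed the dissociation of the others, and this difference in handling cannot be told apart from culture.

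**Figure D4:**
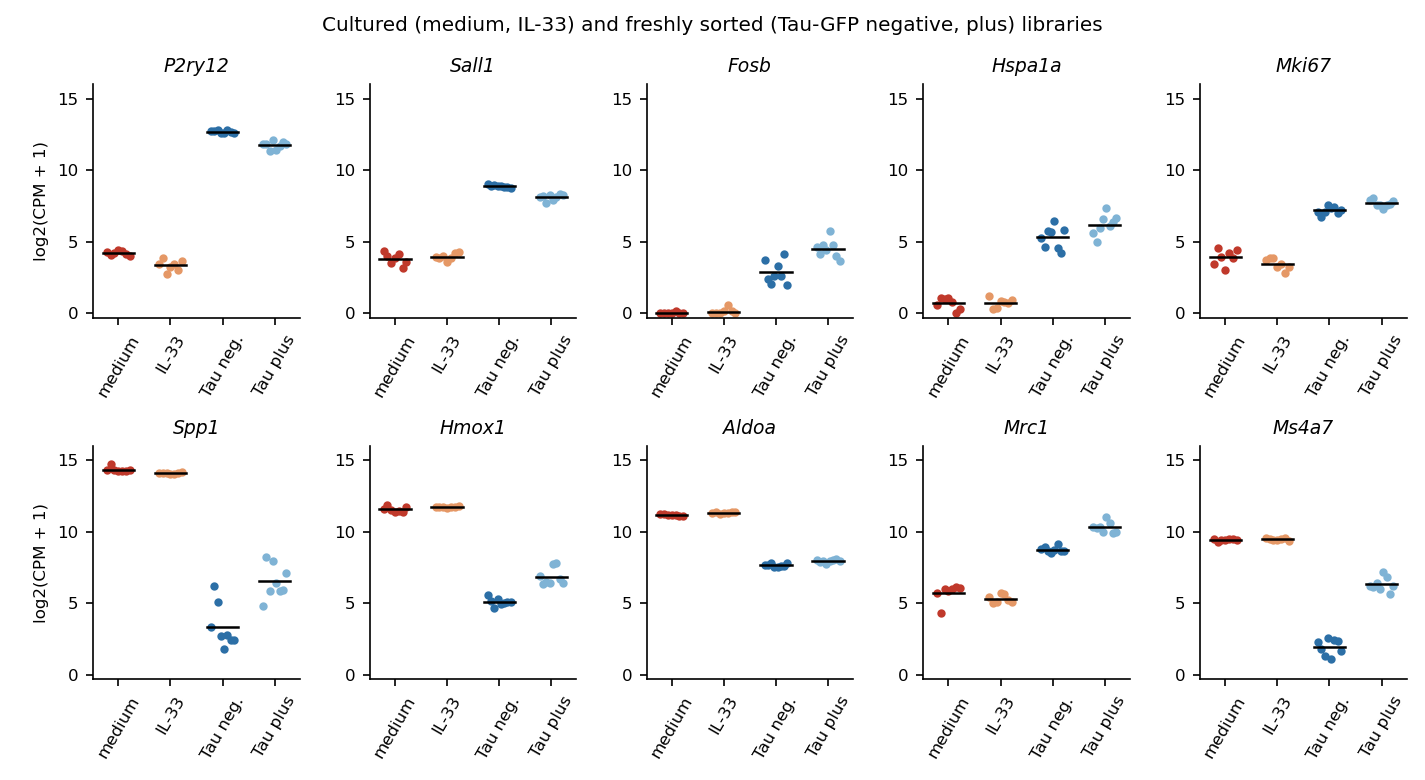
Levels of 10 genes as log2(CPM + 1) in each library of 4 preparations, scaled together, with the mean as a black line. The medium (red) and IL-33 (orange) cultures lie close to each other and apart from Tau-GFP negative (dark blue) and Tau-GFP plus (light blue) cells. Fosb, Mrc1, Ms4a7 and Spp1 are among those that also differ between the 2 gates. For medium cultures, the log2 fold change against negative and plus cells was -8.57 and -7.66 for P2ry12, and -5.15 and -4.39 for Sall1.

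Cytokine and chemokine genes moved in both directions. Of 16 measured NF-kB and cytokine genes, 5 (31.2%) rose and 2 (12.5%) fell beyond 2-fold, beside 12.7% and 15.4% of all tested genes, and 4 fell with library totals alone. Il1a had 0, 0.356 and 0.527 CPM as the lowest, median and highest level of the 7 cultures, against 28.5, 46.8 and 58.4 CPM in the 8 fresh libraries (log2 fold change -7.29, SE 0.27, adjusted p = 2.1e-15). Rel, an NF-kB subunit, also fell and averaged 26.1 ± 2.64 CPM in culture and 59.2 ± 6.81 CPM in fresh cells (log2 fold change -1.18). Relb and Nfkb2, the subunits of the non-canonical pathway, rose, with Relb at 70.5 ± 7.29 CPM in culture and 12.2 ± 3.14 CPM in fresh cells (2.54) and Nfkb2 at 109.5 ± 12.3 CPM in culture and 22.8 ± 2.49 CPM in fresh cells (2.26). Tnf averaged 64.8 ± 14.8 CPM in culture and 18 ± 7.6 CPM in fresh cells (1.85), and against Tau-GFP plus cells, with a mean of 71.3 CPM, it was not called (-0.13). The median of this list was 0.26 with TMM and -0.14 with library totals alone. Of 16 chemokine genes, 6 (37.5%) rose and 5 (31.2%) fell beyond 2-fold, beside 12.7% and 15.4% of all tested genes. Cxcl14, a chemokine of epithelia and macrophages, averaged 95.6 ± 4.05 CPM in culture and 0.165 ± 0.276 CPM in fresh cells (log2 fold change 9.15, SE 0.27, adjusted p = 6.89e-17), and Ccl5 8.61 ± 2.9 CPM in culture and 0.225 ± 0.295 CPM in fresh cells (5.14). Ccl12, a monocyte attractant, averaged 0.876 ± 0.494 CPM in culture and 51.9 ± 7.04 CPM in fresh cells (log2 fold change -5.87, SE 0.20, adjusted p = 8.97e-16), and Ccr1, a chemokine receptor, 11.6 ± 3.43 CPM in culture and 95.8 ± 18.5 CPM in fresh cells (-3.04). Cxcl2 averaged 11.1 ± 3.23 CPM in culture and 0.221 ± 0.365 CPM in fresh cells (5.63), whereas against Tau-GFP plus cells it was not called (-0.63).

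Of 21 interferon-response genes, 8 (38.1%) rose and 3 (14.3%) fell beyond 2-fold, beside 12.7% and 15.4% of all tested genes. Their median was 0.78, and 0.38 with library totals alone. With TMM the plain test called 13 higher and 6 lower, beside 38.2% and 39.8% of all tested genes. With library totals alone it called 10 higher and 7 lower. Ifitm3, which blocks virus entry, had 458, 480.3 and 537 CPM as the lowest, median and highest level of the 7 cultures, against 9.36, 16 and 23.2 CPM in the 8 fresh libraries (log2 fold change 4.97, SE 0.15, adjusted p = 1.15e-16), and Oasl2, of the oligoadenylate synthetase family, averaged 114 ± 8.46 CPM in culture and 8.89 ± 1.9 CPM in fresh cells (log2 fold change 3.67). Gbp3, a guanylate-binding protein, averaged 1.35 ± 0.621 CPM in culture and 28.8 ± 3.91 CPM in fresh cells (log2 fold change -4.39, SE 0.20, adjusted p = 4.99e-14), and Mx1, an antiviral GTPase, 3.66 ± 1.77 CPM in culture and 17.1 ± 5.97 CPM in fresh cells (-2.22). Among 9 MHC class I genes, 3 (33.3%) rose beyond 2-fold, beside 12.7% of all tested genes. These were H2-D1 (2.7), H2-K1 (2.55) and their transactivator Nlrc5 (2.21). Class I genes are near-identical copies that can share reads. Tap1, the peptide transporter, was lower (-0.62). Of 4 class II genes, Cd74, the invariant chain, averaged 5.45 ± 3.38 CPM in culture and 40.8 ± 8.69 CPM in fresh cells (log2 fold change -2.89, SE 0.26, adjusted p = 3.82e-09) and H2-DMa, of peptide loading, 25.3 ± 4.26 CPM in culture and 88.6 ± 9.22 CPM in fresh cells (-1.81). H2-DMb1 was also lower (-0.20), though higher against Tau-GFP plus cells (0.27), and H2-Ab1 higher (0.87). The H2-Ab1 call was lost on leaving out any 1 library except cultured replicate 3 and fresh replicate 3. Fresh replicate 3 held 41.1 CPM of it, and without that library the log2 fold change was 1.6.

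Sensing and uptake receptors moved in both directions. Of 14 Toll-like receptor genes and partners, 4 (28.6%) rose and 4 (28.6%) fell beyond 2-fold, beside 12.7% and 15.4% of all tested genes. Their median was -0.68. Scaled by library totals alone, 3 rose and 7 fell, with a median of -1.08. Tlr8 averaged 74.1 ± 6.02 CPM in culture and 0.601 ± 0.587 CPM in fresh cells (log2 fold change 6.88, SE 0.30, adjusted p = 4.24e-14), the coreceptor Cd14 1099 ± 157 CPM in culture and 137 ± 10.3 CPM in fresh cells (log2 fold change 3.0) and Tlr2 487 ± 52 CPM in culture and 143 ± 9.13 CPM in fresh cells (1.77). Tlr5, the flagellin receptor, averaged 1.09 ± 0.677 CPM in culture and 35.5 ± 6.11 CPM in fresh cells (log2 fold change -5.01, SE 0.23, adjusted p = 9.52e-14), Tlr9, the receptor for unmethylated DNA, 10.2 ± 1.32 CPM in culture and 75.8 ± 9.13 CPM in fresh cells (-2.9), and Ly86, the MD-1 partner protein, 122 ± 18.6 CPM in culture and 665 ± 52 CPM in fresh cells (-2.44). Of 18 Fc, scavenger and apoptotic-cell receptor genes, 6 (33.3%) rose and 2 (11.1%) fell beyond 2-fold, beside 12.7% and 15.4% of all tested genes, with a median of 0.24. Scaled by library totals alone, 5 rose and 6 fell, with a median of -0.16. The scavenger receptor genes of this list that rose included Cd36 at 493 ± 38.5 CPM in culture and 5.25 ± 2.44 CPM in fresh cells (log2 fold change 6.57, SE 0.19, adjusted p = 7.1e-17), Msr1 at 379 ± 15.9 CPM in culture and 1.49 ± 0.577 CPM in fresh cells (7.98) and Colec12 at 1051 ± 61.2 CPM in culture and 22.8 ± 2.66 CPM in fresh cells (5.52). Marco, a scavenger receptor for bacteria, averaged 15.5 ± 7.14 CPM in culture and 0.0216 ± 0.0404 CPM in fresh cells. The 2 members that fell belong to apoptotic-cell uptake, namely the receptor tyrosine kinase Mertk at 125 ± 12.6 CPM in culture and 355 ± 37.5 CPM in fresh cells (-1.5) and its bridging ligand Pros1 at 108 ± 9.89 CPM in culture and 519.6 ± 35.1 CPM in fresh cells (-2.27).

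Of 13 complement genes, 6 (46.2%) rose and 3 (23.1%) fell beyond 2-fold, beside 12.7% and 15.4% of all tested genes. On library totals alone, 5 fell beyond 2-fold. C5ar1, the C5a receptor, averaged 1209.8 ± 133 CPM in culture and 61.8 ± 7.39 CPM in fresh cells (log2 fold change 4.29, SE 0.09, adjusted p = 2.64e-19), C3 140.2 ± 23.6 CPM in culture and 8.99 ± 2.33 CPM in fresh cells (log2 fold change 3.97) and properdin (Cfp) 180.0 ± 39.5 CPM in culture and 3.63 ± 0.841 CPM in fresh cells (5.62). Among those that fell, C4b averaged 0.0685 ± 0.0914 CPM in culture and 6.4 ± 2.64 CPM in fresh cells (log2 fold change -6.35) and Cfb 2.94 ± 2.21 CPM in culture and 14.1 ± 3.89 CPM in fresh cells (-2.28). Of 28 adhesion, matrix and cytoskeletal genes, 18 (64.3%) rose and 1 (3.57%) fell beyond 2-fold, beside 12.7% and 15.4% of all tested genes. The median was 3.98, and 3 fell beyond 2-fold with library totals alone. Cd44, a hyaluronan receptor, averaged 379 ± 24.3 CPM in culture and 6.0 ± 2.93 CPM in fresh cells (log2 fold change 5.98, SE 0.19, adjusted p = 1.87e-16), the intermediate filament gene Vim 1028 ± 136 CPM in culture and 21.2 ± 17.9 CPM in fresh cells (5.61), Lgals1 389.7 ± 38.4 CPM in culture and 6.5 ± 1.64 CPM in fresh cells (5.91) and S100a6 90.7 ± 10.6 CPM in culture and 0.435 ± 0.505 CPM in fresh cells (7.74). Itga6, a laminin receptor chain, was the member that fell, at 42 ± 5.95 CPM in culture and 103 ± 11.6 CPM in fresh cells (-1.29).

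Genes of border-associated macrophages, which live in the meninges and around vessels, did not move together. Of 11 listed markers, 9 were measured. Of these, 5 (55.6%) rose and 4 (44.4%) fell beyond 2-fold, beside 12.7% and 15.4% of all tested genes. Ms4a7 averaged 684 ± 26 CPM in culture and 3.07 ± 1.42 CPM in fresh cells (log2 fold change 7.79, SE 0.18, adjusted p = 1.47e-18), F13a1 638 ± 100.5 CPM in culture and 17.6 ± 9.01 CPM in fresh cells (log2 fold change 5.18), Siglec1 84.5 ± 8.99 CPM in culture and 5.26 ± 0.868 CPM in fresh cells (4.0), Pf4 154 ± 45.9 CPM in culture and 15.2 ± 10.5 CPM in fresh cells (3.33) and Folr2 29.7 ± 9.1 CPM in culture and 7.31 ± 2.58 CPM in fresh cells (2.02). The mannose receptor Mrc1 averaged 54.9 ± 16.8 CPM in culture and 432 ± 62 CPM in fresh cells (log2 fold change -2.97, SE 0.18, adjusted p = 1.02e-11), and Lyve1 0.0850 ± 0.156 CPM in culture and 7.48 ± 4.06 CPM in fresh cells (-6.3), Cbr2 0.645 ± 0.315 CPM in culture and 8.17 ± 1.95 CPM in fresh cells (-3.64) and Ccl24 0.0330 ± 0.0564 CPM in culture and 12.4 ± 9.37 CPM in fresh cells. Tau-GFP plus cells carried more of these transcripts, with means of 711 CPM for F13a1, 523 CPM for Pf4 and 1316 CPM for Mrc1. Against that gate, F13a1 was not called (-0.14), and Pf4 (-1.75) and Folr2 (-1.39) were lower in culture.

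Markers of other cell types were low in both groups and differed between them. The summed level of 7 endothelial markers ranged from 4.55 to 16.9 CPM in culture and from 61 to 325 CPM in fresh cells. Cldn5 was at 0 in all cultures and between 4.16 and 201 CPM in fresh cells. Pecam1 alone held 44.41 to 64.55 CPM in every fresh library, most of the sum outside fresh replicates 4 and 8. Flt1 overlapped between the groups, at 0.449 to 13.4 CPM in culture and 0 to 9.21 CPM in fresh cells. The 4 choroid plexus markers summed to at most 0.449 CPM in culture and between 0.456 and 91.1 CPM in fresh cells. The 10 neuronal markers summed to 0.527 to 1.35 CPM in culture and 4.43 to 12.5 CPM in fresh cells, and the 8 astrocyte markers to 34.1 to 46.7 CPM in culture and 59.1 to 117 CPM in fresh cells, with Gfap and Aqp4 at 0 in every culture. Astrocyte markers did not move one way, as Slc1a3 was at no more than 0.369 CPM in culture and at 44.1 to 72.1 CPM in fresh cells, whereas Aldoc was at 28.2 to 36.2 CPM in culture and 1.46 to 8.63 CPM in fresh cells. The lymphocyte sum was nearly all Cd79b, at 9.61 to 15.3 CPM in culture and 60.7 to 79.7 CPM in fresh cells, and Cd3e and Cd3g were at 0 in both groups. The 6 oligodendrocyte precursor markers summed to 20.7 to 57.4 CPM in culture and 0.365 to 2.33 CPM in fresh cells, which Cspg4 accounted for, at 28.7 ± 12.8 CPM in culture and 0.200 ± 0.181 CPM in fresh cells. Of neutrophil markers, S100a8 averaged 8.11 ± 1.44 CPM in culture and 0.108 ± 0.204 CPM in fresh cells, and S100a9 was at 0 in all cultures. The 7 oligodendrocyte markers overlapped between the groups, at 135 to 153 CPM in culture and 125 to 429 CPM in fresh cells. Among the genes with the largest losses, Cldn5, Ttr, Sparcl1 and Slc1a3 are known from endothelium, choroid plexus and astrocytes. The part of these cell types in the losses was not tested. Across fresh libraries, Ttr ranged from 0.228 to 84.2 CPM and Slc1a3 from 44.1 to 72.1 CPM. Gfap was there at 0.228 to 3.88 CPM and Aqp4 at 0.183 to 4.65 CPM. The other large losses outside the lists were Tmem44, BC035044, Myo18b and Mrc2, with 9, 12, 4 and 7 reads in the 7 cultures and 10176, 8802, 2918 and 2998 in the fresh libraries.

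**Figure D5:**
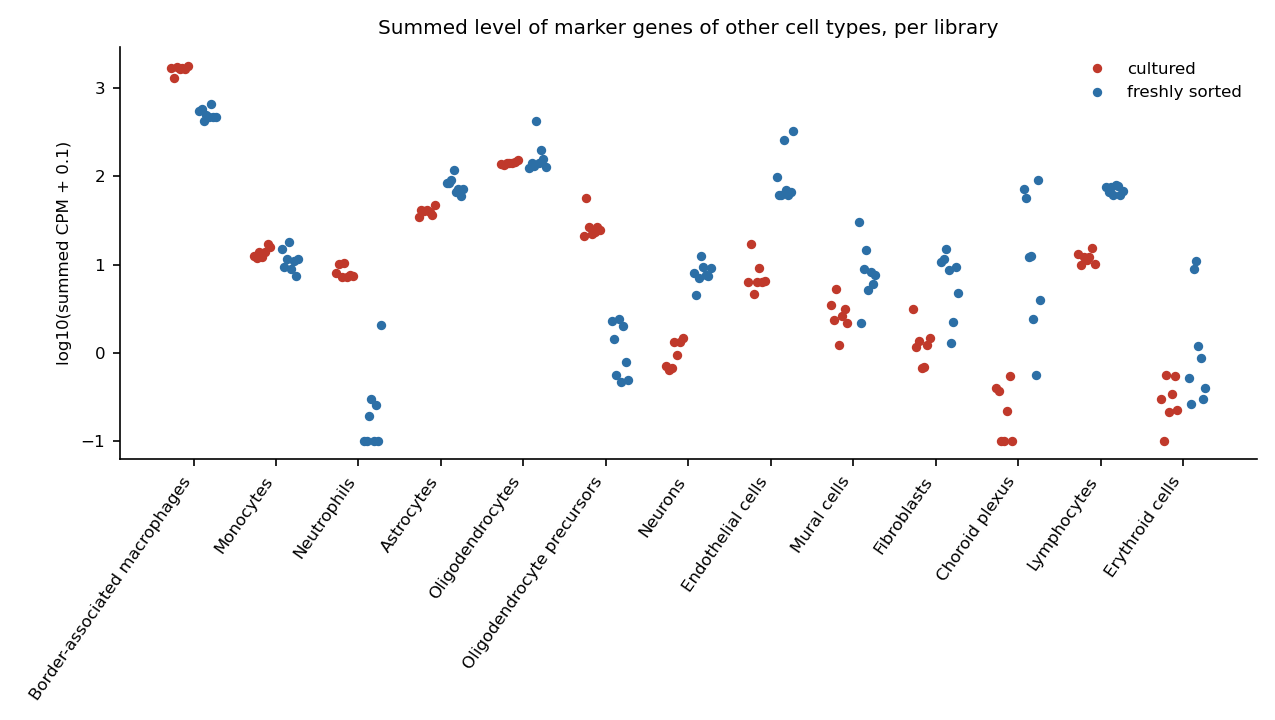
Summed CPM of the markers of 13 other cell types, as log10(sum + 0.1), in each of 7 cultured (red, left) and 8 freshly sorted (blue, right) libraries. Endothelial, choroid plexus and neuronal sums are higher in fresh cells, the first largely through Pecam1 outside fresh replicates 4 and 8. The lymphocyte sum is higher there through Cd79b alone, and oligodendrocyte precursor and neutrophil sums are higher in culture.

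Another set of libraries, which shares none with the first, was compared the same way. In IL-33-treated cultures against Tau-GFP plus cells, 3169 of the 3250 genes called beyond 2-fold were tested, of which 3126 had the same sign and 2232 passed the 2-fold test again in the same direction. P2ry12 averaged 9.55 CPM in IL-33 cultures and 3538 CPM in Tau-GFP plus cells, and Spp1 17710.0 CPM in IL-33 cultures and 123 CPM in Tau-GFP plus cells. These libraries share culture conditions and pups with the first set, so they repeat the preparation and not the design.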

How the data were processed

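The values are expected counts per gene, which the authors deposited as 1 table. Per the submitters' processing notes, Bowtie2 and RSEM were used on mm10, with versions, annotation and use of strand not stated. The table lists 23420 genes and no mitochondrially encoded one. Of its 35 columns, 30 matched the sample labels by well and the 5 unlabelled ones were left out. Expected counts, of which 25.3% were not whole, were rounded. Another 27 symbols had been turned into dates. They hold 0.134% of the counts and were fitted but never named.

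The 7 cultured and 8 Tau-GFP negative libraries went into 1 fit of edgeR 4.0.16 (R 4.3.3) with TMM scaling, its default expression filter and the quasi-likelihood F test, in both directions. A call is a Benjamini-Hochberg adjusted p under 0.05 over all 11562 tested genes. The 2-fold test is edgeR's glmTreat on the same fit, also by adjusted p. Log2 fold changes are cultured over fresh, with SE as the absolute value divided by the square root of F. Levels are mean ± SD in CPM, n = 7 cultured and 8 fresh. Levels of all 4 preparations were scaled together over the 30 libraries. The expected counts of no 2 libraries of a group agreed within sampling noise. Intervals at 95% and floors of 3 reads cover counting error only. The fit was also run on simulated counts in which few genes changed, equally up and down. That run cannot show how the scaling behaves in this contrast, where most genes changed.

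The members and the 27 programme and 15 other gene lists were chosen with earlier results of these data known. Genes are named by a rule: the markers P2ry12, Sall1 and Il1rl1, the 12 largest changes each way beyond 2-fold with no overlap and at least 20 CPM in the higher group, and from each list up to 4 called members each way with at least 5 CPM in a group, or all called where 5 or fewer. Some of these are given only as counts, and a few are not reported here. Tmem119, Cx3cr1, Gpr34, Sparc, Gpnmb, Apoe, Trem2, Il1rap and Tgfbr2 were added after their values were seen, as were the promoters shown. Promoters are the first start listed per gene by RefSeq. Alternatives were other scalings, filters, DESeq2 1.42.0, the replicate number as a block, other comparators and leaving out each library.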

Additional observations from a re-analysis of the deposited data

Results flagged for a closer look

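Over 169 named genes in both groups, 49 of 338 sets of values had a library whose gap to its nearest neighbour was large for the range of its group. Chance gives about 1 in 20 such sets. Of the 31 in culture, 25 fell on cultured replicate 2, the shallowest library.

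In cultured replicate 2, these levels were the highest of the 7 cultures. Spp1 was at 26600 CPM, Gpnmb at 4522 CPM, Lgals3 at 3030 CPM, Pgam1 at 1647 CPM, Vim at 1323 CPM and Ch25h at 294.1 CPM. Clec4e was at 208.6 CPM, Cdkn1a at 166.2 CPM, S100a6 at 112.2 CPM, Cspg4 at 57.29 CPM and Pfkp at 56.5 CPM. Ccl5 was at 14.22 CPM, Phgdh at 14.09 CPM, Csf1 at 5.663 CPM and Sparcl1, from 2 reads, at 0.2634 CPM. These levels were the lowest of the 7 in the same library: Csf1r at 2387 CPM, C5ar1 at 937.7 CPM, Cd14 at 767.8 CPM, Tgfbr2 at 258.5 CPM and Fpr1 at 127.6 CPM. The same held for Cfp at 97.85 CPM, Csf3r at 64.93 CPM, Pf4 at 61.77 CPM, Egr1 at 25.68 CPM and Mrc1 at 18.96 CPM. In other cultures, replicate 3 was the highest for Clec4d (747 CPM) and Marco (30.4 CPM), replicate 4 for Ctsk (26.98 CPM) and Tmem44 (0.6746 CPM), replicate 5 for Fosb (0.1187 CPM, 1 read) and replicate 6 for Mrc2 (0.5614 CPM).

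In fresh cells, replicate 6 was the highest for Lgmn (8231 CPM), Tmem119 (2674 CPM), Rps9 (704.5 CPM), Rel (73.64 CPM) and Cox5a (68.55 CPM). Replicate 8 was the lowest for Apoe (2867 CPM) and the highest for Asns (10.01 CPM), Pfkp (6.806 CPM), S100a8 (0.5834 CPM) and Clec4d (0.2917 CPM). The highest values were in replicate 2 for Spp1 (74.47 CPM) and in replicate 3 for H2-Ab1 (41.14 CPM) and Fpr1 (0.09043 CPM). They were in replicate 4 for S100a6 (1.551 CPM) and Cxcl14 (0.7753 CPM), in replicate 5 for Mrc2 (60.55 CPM) and Adora2b (0.548 CPM), and in replicate 7 for Cxcl2 (1.071 CPM).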

How the results depend on the processing

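Library totals in place of TMM moved the count of genes higher in culture to 2781, from 4416, and the count lower beyond 2-fold to 2767, from 1784. The other 2 counts stayed within 1.5 times, and all 4 did under the other alternatives, as P2ry12, Sall1 and Il1rl1 stayed called lower under every alternative run. Leaving out each of the 15 libraries in turn gave 4327 to 4424 genes higher, 4449 to 4638 lower, 1422 to 1476 higher beyond 2-fold and 1661 to 1828 lower beyond 2-fold. It gave log2 fold changes of -8.60 to -8.53 for P2ry12, -5.26 to -5.05 for Sall1 and -5.06 to -4.50 for Il1rl1. The replicate numbers do not pair the groups: same-numbered libraries deviated with correlations of -0.0339 to 0.109, and 1 of 7 cultures matched its own number best. With the replicate block, 4410 genes were higher and 4474 lower, 1519 and 1738 beyond 2-fold, and the 3 markers stood at -8.58, -5.21 and -4.76. It lost the calls of Gclc, Runx1 and Trem2.

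Among the gene results under alternatives other than leaving out a library, 23 turned direction, 24 lost their call, 3 gained one and 1760 kept both. Those that gained a call were Tgfbr2 with library totals alone (-0.47) and Il1rap in IL-33 cultures against Tau-GFP plus cells (0.59) and with the 3 fresh libraries low in Xist (0.63). With library totals alone, Trem2 was at -0.28, Runx1 at -0.24, Irf8 at -0.17, Csf2rb at -0.091, Pcna at -0.066 and Myd88 at -0.0087. Against Tau-GFP plus cells in place of negative ones, Pf4 was at -1.75, Folr2 at -1.39, Fos at -1.02, Cxcl2 at -0.63, F13a1 at -0.14 and Tnf at -0.13, and H2-DMb1 at 0.27, Hk2 at 0.16 and Gclc at 0.057. In IL-33 cultures against Tau-GFP plus cells, Pf4 was at -2.0, Folr2 at -1.85, Fos at -0.62, F13a1 at -0.16 and Pcna at -7.42e-05, and Hk2 at 0.26, Gclc at 0.23 and H2-DMb1 at 0.083. The cause was not tested. With the 5 fresh libraries high in Xist, or with the other 3, both chosen after seeing the data, no named gene turned direction, but with the 3, 3205 of 3206 genes called beyond 2-fold kept their sign.

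For transcripts near 0 in 1 group, a few reads in 1 library set the size of the fold change. Without that library, the log2 fold change was -15.77 for Siglech (cultured replicate 3), -12.20 for Slc2a5 and -10.65 for Tmem44 (cultured replicate 4), -10.10 for BC035044 (cultured replicate 7), -7.23 for Lyve1 (cultured replicate 2) and -6.96 for C4b (cultured replicate 6). It was 12.85 for Mmp12, 11.41 for Irg1, 10.08 for Cxcl14 and 8.35 for S100a6 without fresh replicate 4, 6.62 for Cxcl2 without fresh replicate 7 and 7.21 for Adora2b without fresh replicate 5. At this depth, a level under about 1 CPM rests on few reads, and its fold change has no firm size.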
